A study of Mus musculus with 19 samples.

Results

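Mouse embryonic stem cells that lacked both Trim71 and Lin28a (KO-KO) were compared by mRNA sequencing with cells in which both genes were intact (WT-WT). The comparison holds 5 KO-KO and 4 WT-WT libraries, 9 of the 19 libraries in the series, and they were chosen by the genotype in their labels. The KO-KO cells are labelled Trim-/- - Lin28a-/- and the WT-WT cells Trimfl/fl - Lin28afl/fl. The single losses, KO-WT (Trim-/- Lin28afl/fl) and WT-KO (Trimfl/fl Lin28a-/-), are used here beside them, with 4 and 5 libraries. All were male C57BL/6 embryonic stem cells kept in foetal calf serum with LIF and enriched for the surface antigen SSEA-1 on magnetic columns. Trim71 was deleted in floxed cells with 500 nM 4-hydroxytamoxifen over 2 days, followed by 7 days or more of culture. The labels do not say how Lin28a was removed or whether the cells with intact Trim71 also received the drug, so the drug and the loss of Trim71 cannot be told apart. The labels name 2 Lin28a-intact clones (1 and E3) and 2 Lin28a-null clones (1-4 and C1), so the loss of Lin28a and the choice of clone cannot be told apart. WT-WT replicates 1 and 4 came from clone 1 and replicates 2 and 3 from clone E3. KO-KO replicates 1 and 5 came from clone 1-4 and replicates 2, 3 and 4 from clone C1.

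TRIM71 is an RNA-binding ubiquitin ligase that represses the mRNAs it binds and is required in early embryos. LIN28A is an RNA-binding protein that blocks the maturation of the microRNA let-7 and also binds many mRNAs directly. Mature let-7 in turn represses mRNAs with a match to its seed in the 3' UTR, among them the mRNAs of Trim71 and Lin28a, so these proteins and the microRNA form a loop that is active while stem cells are undifferentiated.

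The seed, bases 2 to 8 of the microRNA, decides which mRNAs can pair with it, and the let-7 sequences are shown because many genes below are known through it. All 9 mature let-7 and miR-98 sequences in the RefSeq table (GRCm38.p6) carried the same seed, printed in capitals in 4 of them.
let-7a-5p: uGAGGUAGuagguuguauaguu
let-7e-5p: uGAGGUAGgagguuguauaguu
let-7g-5p: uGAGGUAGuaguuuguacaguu
miR-98-5p: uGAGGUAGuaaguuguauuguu
The family members differ only outside the seed. The match to the seed in an mRNA reads CTACCTC, and 1 such match is printed for each of 4 list members with called changes, from GENCODE M21 transcripts on GRCm38.
Hmga2, chr10:120364224-120364246, minus strand: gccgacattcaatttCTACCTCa
Prtg, chr9:72912558-72912580, plus strand: ccctctgctgaatagCTACCTCa
Nr6a1, chr2:38727719-38727741, minus strand: gagactgtggagcagCTACCTCc
Igf2bp2, chr16:22059473-22059495, minus strand: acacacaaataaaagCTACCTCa
In these 3' UTRs the motif occurred 4 times in Hmga2, 2 times in Prtg, 8 times in Nr6a1 and 1 time in Igf2bp2.

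Both targeted transcripts were lower in every KO-KO library than in any WT-WT library. Trim71 read 10.33, 10.26, 10.04 and 10.19 in the WT-WT libraries and 9.28, 9.05, 9.24, 9.25 and 9.55 in the KO-KO libraries, in log2 units of the deposited normalised values. Lin28a read 10.20, 10.26, 9.90 and 10.16 in WT-WT and 8.21, 8.23, 8.30, 8.31 and 8.36 in KO-KO. The labels do not give the deleted exons, and reads from the rest of either gene would still be counted. Lin28b, the paralogue of Lin28a, differed by 0.11 ± 0.1 (SE) with an adjusted p of 0.372 (limma, Benjamini-Hochberg), which did not pass the threshold. Read depth is unknown, because the values were deposited after normalisation. All 12 embryonic stem cell markers were measured, and their summed level, as log2 of the sum, ran from 15.40 to 15.47 in WT-WT and from 15.72 to 15.79 in KO-KO. Of 20 fibroblast markers, 10 were in the table, 8 could be tested and Pdgfrb and Col6a3 stayed below log2 of 10 in every library. The fibroblast sum ran from 8.47 to 8.59 in WT-WT and from 8.10 to 8.20 in KO-KO.

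Between KO-KO and WT-WT many transcripts differed by small amounts and a smaller set by large ones, and the large changes were mostly decreases. The widest were the imprinted RNA H19 and the keratins Krt18, Krt8 and Krt7, which fell, and the activin subunit gene Inhbb, which rose. A gene is called here where its adjusted p in limma was under 0.05, and 6834 of 14988 tested genes were called (45.6%). Of all tested genes, 3143 were called higher (21%) and 3691 lower (24.6%). The excess of lower calls depended on the scaling: with each library scaled to its 75th percentile, 3417 were higher and 3329 lower, and with a trimmed mean 3422 and 3416. The median absolute difference of called genes was 0.31 log2 units. At least 2-fold changes were found in 225 genes (1.5%), 30 higher and 195 lower. The KO-KO and WT-WT libraries did not overlap for 6667 genes (44.5%), whether called or not.

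H19, a maternally expressed long noncoding RNA, read 11.10, 11.24, 10.998 and 11.52 in WT-WT. In KO-KO it read 5.85, 5.79, 5.68, 5.75 and 5.22, so the groups lay far apart and did not overlap. It fell by 5.56 ± 0.14 (SE), a 47.1-fold difference, with a limma adjusted p of 1.87e-13. From the single losses its KO-KO level differed by -0.45 (WT-KO) and -5.02 (KO-WT). Krt18 read 10.54, 11.02, 10.71 and 10.93 in WT-WT and 7.24, 6.61, 6.52, 6.69 and 6.61 in KO-KO. Krt8, its filament partner in simple epithelia, read 10.74, 11.33, 10.84 and 10.92 in WT-WT and 7.47, 6.92, 6.72, 7.05 and 6.91 in KO-KO. For both keratins KO-KO replicate 1 was the highest of its group and still lay more than 3 log2 units below the lowest WT-WT library. Krt7, another simple epithelial keratin, changed by -3.23. Reads shared with near-identical copies, such as processed pseudogenes of keratins, could not be followed, since the counting step is not given in the sources used here.

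Among the other genes with the widest decreases were Cubn, Anxa2 and the locus AC122273.1 (-3.23). Cubn, an endocytic receptor of visceral endoderm, read 7.94, 8.45, 8.49 and 7.995 in WT-WT and 5.51, 4.95, 4.64, 4.81 and 5.01 in KO-KO. The groups did not overlap, and the change was -3.23. The membrane-binding gene Anxa2 changed by -3.08 ± 0.182 (SE), with a limma adjusted p of 2.61e-09. Anxa2 read 6.43, 5.67, 5.65, 6.14 and 5.99 in KO-KO and 5.43, 5.63, 5.76, 5.98 and 5.375 in WT-KO. AC122273.1 read 5.44, 4.91, 4.99, 4.89 and 4.85 in KO-KO and 4.67, 5.11, 5.03, 4.84 and 4.90 in WT-KO. In bulk RNA, fewer cells of a type and less RNA per cell cannot be told apart.

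Inhbb, which encodes the beta B subunit of activins and inhibins, showed the widest increase. It read 7.18, 7.41, 7.28 and 7.18 in WT-WT and 9.07, 8.99, 8.90, 8.98 and 8.78 in KO-KO. The change was 1.68 ± 0.0875 (SE), or 3.2-fold, with a limma adjusted p of 5.49e-10. Egr1, an immediate early transcription factor, read 7.34, 7.64, 7.35 and 7.50 in WT-WT and 9.24, 8.73, 8.94, 8.94 and 9.01 in KO-KO. Ntn1, which encodes the guidance cue netrin 1, read 7.31, 7.68, 7.44 and 7.60 in WT-WT and 8.97, 8.85, 8.94, 9.02 and 8.89 in KO-KO. Neither gene had a KO-KO library inside the WT-WT range. The remaining genes were Myo1f (1.43), an unconventional myosin, the actin-bundling gene Dmtn (1.39), the Ras-family gene Mras (1.36), the adaptor gene She (1.30) and the growth factor gene Fgf17 (1.22).

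**Figure D1:**
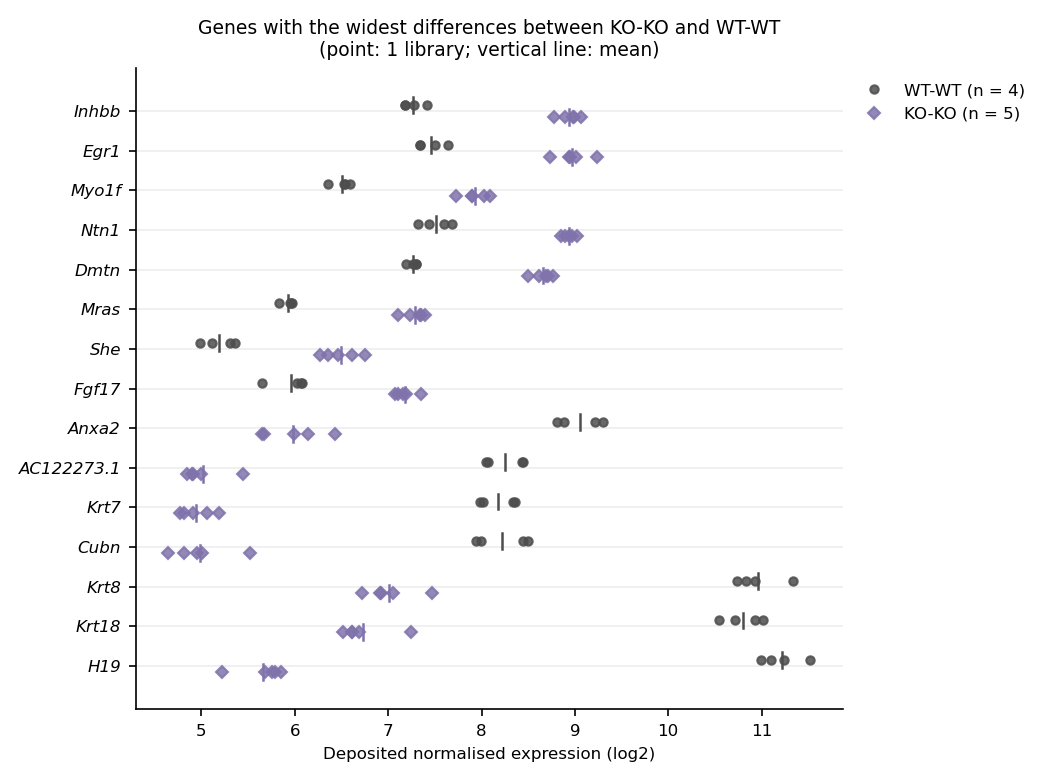
Deposited log2 expression (x axis) of 15 genes with the widest differences (rows), 1 point per library and a vertical line at each group mean. That rule required no overlap between the 4 WT-WT and 5 KO-KO libraries. Among the 15 genes H19 shows the widest gap, -5.56.

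Each single loss shares one mutation with the KO-KO cells, so the values of the 4 genotypes were set side by side. Against WT-KO, which has the same Lin28a state and clones, 1256 genes were called (8.38%), 639 higher and 617 lower in KO-KO. That count fell to between 676 and 814 when WT-KO replicate 1, 4 or 5 or KO-KO replicate 1 or 2 was left out. Against KO-WT, 6412 genes were called (42.8%). The single losses themselves gave 6351 calls for WT-KO against WT-WT (42.4%) and 1674 for KO-WT against WT-WT (11.2%). These comparisons share libraries with each other, so their calls are not independent.

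A small set of genes stood apart in KO-KO from each of the other 3 genotypes, with calls in the same direction against all 3 and no overlapping library. With a mean of at least log2 of 50 also required, there were 122 such genes on the high side and 96 on the low side. These were 0.814% and 0.641% of all 14988 tested genes. On the high side Inhbb led: its WT-KO libraries read 7.90, 7.997, 8.02, 7.77 and 8.03 and its KO-WT libraries 8.04, 7.97, 8.27 and 8.31, between the WT-WT and KO-KO values. Mras, which encodes a GTPase that activates the RAF and ERK cascade, read 5.83, 5.96, 5.96 and 5.94 in WT-WT and 7.23, 7.35, 7.39, 7.35 and 7.11 in KO-KO. Its mean was 6.56 in WT-KO and 6.55 in KO-WT, and KO-KO exceeded these by 0.73 and 0.73. Atp2a3, a calcium pump gene of the endoplasmic reticulum, averaged 7.00 in WT-WT, 7.37 in WT-KO, 7.40 in KO-WT and 8.01 in KO-KO. Kcnab3, a potassium channel subunit gene, averaged 5.44, 5.58, 5.55 and 6.08 in the same order, and neither single loss of it was called.

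On the low side were Insm1, Gm4419, Hes6 and Apela. Insm1, a zinc finger factor of neuroendocrine precursors, read 7.58, 7.53, 7.38 and 7.36 in WT-WT and 6.20, 5.96, 6.02, 6.12 and 6.38 in KO-KO. Its means were 6.89 in WT-KO and 7.11 in KO-WT, and the KO-WT mean was not called against WT-WT. Hes6, a modulator of the Notch effector Hes1, read 8.71, 8.67, 8.37 and 8.58 in WT-WT and 7.33, 7.21, 7.28, 7.37 and 7.62 in KO-KO. Its KO-WT mean was 8.48, beside 8.58 in WT-WT, while KO-KO was lower than WT-KO by -0.62 ± 0.09 (SE), with a limma adjusted p of 0.000636. Apela, which encodes a secreted ligand of the apelin receptor, averaged 7.71 in WT-WT, 7.36 in KO-WT, 6.66 in WT-KO and 6.04 in KO-KO. The predicted gene Gm4419 averaged 7.24, 7.26, 6.98 and 6.36 in that order.

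**Figure D2:**
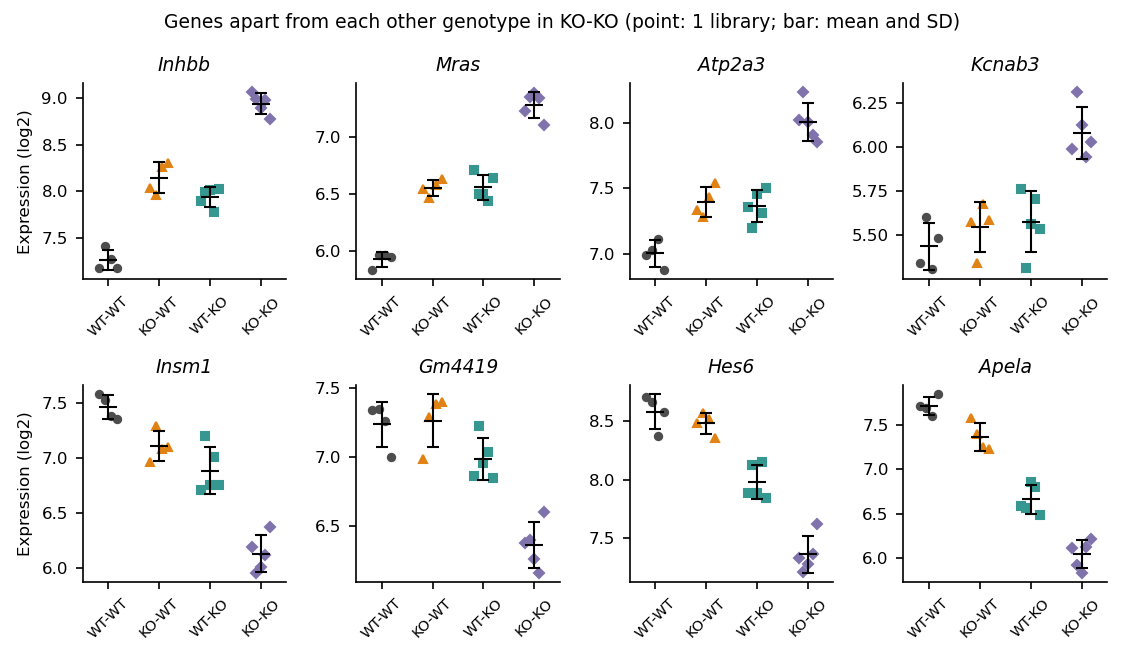
Log2 expression (y axis, a separate scale per panel) of 8 genes in the 4 genotypes (x axis), with 1 point per library and the mean and SD as bars. In the upper row every KO-KO library lies above all other libraries, and in the lower row below them; Inhbb averages 8.94 in KO-KO and 7.26 in WT-WT.

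Across 35 gene lists, the pluripotency list had the highest median difference and the trophectoderm list the lowest of those with at least 8 tested members. All tested genes together had a median difference of -0.02, with 45.6% called, which is the level each list is read against. Called shares ran from 18.2% for mitochondrial ribosomal proteins to 92.6% for trophectoderm and placenta genes in those lists. Cytosolic ribosomal protein genes, at 20.7% called, also lay below the level of all genes.

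**Figure D3:**
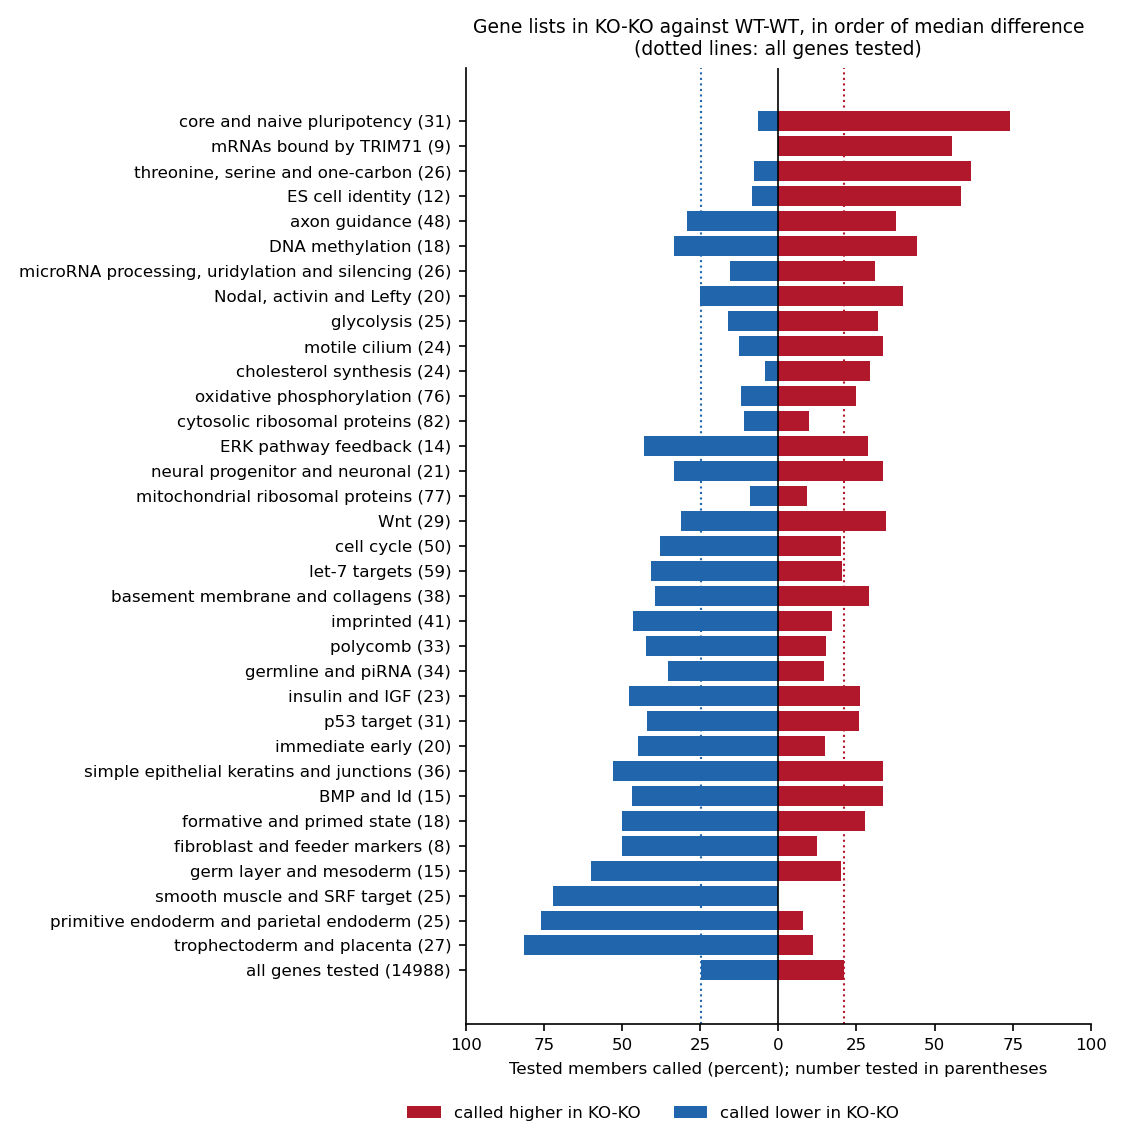
Percent of tested members called higher (right) or lower (left) in KO-KO, for each list with at least 8 tested members, in order of the list's median difference. Dotted lines mark all tested genes, 21% higher and 24.6% lower; the pluripotency list lies at the top and the trophectoderm list just above the row of all genes.

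Genes of the naive pluripotency network rose in the cells without Trim71 and Lin28a, while several core factors moved little. Of 31 tested core and naive genes, 23 rose, 2 fell and 6 were not called (80.6% called, median 0.43). In WT-KO against WT-WT 25 of the 31 were called higher and 1 lower (median 0.30), where 3049 and 3302 of 14988 tested genes were. Against WT-KO 9 of the 31 were called higher in KO-KO and 4 lower (median 0.04), beside 4.26% and 4.12% of all tested genes. Nr5a2, a nuclear receptor that binds the Pou5f1 promoter, read 7.92, 7.96, 8.11 and 7.88 in WT-WT and 9.14, 9.03, 9.24, 9.01 and 9.11 in KO-KO. Nanog read 12.30, 12.16, 12.25 and 12.34 in WT-WT and 13.15, 13.36, 13.22, 13.16 and 13.12 in KO-KO. The groups did not overlap for either gene, and the changes were 1.14 ± 0.0706 and 0.94 ± 0.0772 (SE). Klf4, a naive-state transcription factor, read 10.23, 10.18, 10.39 and 10.19 in WT-WT and 11.29, 11.31, 11.25, 11.13 and 11.22 in KO-KO. For Klf4 the single losses lay between, at means of 10.86 in WT-KO and 10.71 in KO-WT, and KO-KO was called higher than each. Klf5 showed the same order, with means of 9.46 in WT-WT, 9.83 in KO-WT, 10.04 in WT-KO and 10.40 in KO-KO.

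The germline and naive-state regulator Prdm14 rose by 0.86, Tbx3 by 0.74 and the nuclear receptor gene Esrrb by 0.66. Pou5f1, which encodes OCT4, rose by 0.19 ± 0.0507 (SE), with a limma adjusted p of 0.00595. Sox2 differed by 0.05 (adjusted p 0.412) and Zfp42, which encodes the naive marker REX1, by 0.01 (adjusted p 0.906), and the groups overlapped for both. Klf2 (-0.20) and Dppa4 (-0.16) were the 2 called decreases. The call of Klf2 had an adjusted p of 0.049 and was lost when any 1 of 10 libraries was left out: WT-WT replicate 1 or 2, WT-KO replicate 2 or 5, KO-KO replicate 1, 2 or 3, or KO-WT replicate 1, 2 or 4. The adjusted p was highest, at 0.249, without WT-WT replicate 1. The call was also lost with the libraries scaled to their 75th percentile (0.0688) or by a trimmed mean (0.0608).

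Because Nanog moved with the list, its promoter is shown: the 250 bases before its RefSeq start site, chr6:122707239-122707488 on the plus strand of GRCm38.p6, with the octamer-type motif in capitals.
Nanog: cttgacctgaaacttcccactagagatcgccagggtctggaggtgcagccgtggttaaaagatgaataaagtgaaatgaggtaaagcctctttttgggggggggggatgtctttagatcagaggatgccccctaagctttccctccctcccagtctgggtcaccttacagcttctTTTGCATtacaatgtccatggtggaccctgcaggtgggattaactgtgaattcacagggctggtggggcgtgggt
The motif searched was ATGCAAA on both strands, and in Nanog it began at position -75. It was present in 3 of 20 pluripotency genes with a promoter sequence (15%), in 5.24% of 27025 genes and in 4.16% of 10497 tested genes. The 3 were Nanog, Sox2 and Zfp42, and neither Sox2 nor Zfp42 was called. Whether the motif relates to the rise was not tested.

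Genes of the formative and primed states, which stem cells pass through as they leave naive pluripotency, fell more often than they rose. Of 18 tested genes 5 rose and 9 fell (77.8% called, median -0.29). Otx2, a factor of the primed state, read 5.27, 5.67, 5.33 and 5.37 in WT-WT and 4.41, 4.10, 4.21, 4.32 and 4.47 in KO-KO. It fell by 1.11 ± 0.136 (SE), with no overlap. Pou3f1, another primed factor, fell by 0.98. Foxd3 (0.63) and Etv5 (0.43) were called in the other direction. The formative gene Fgf5 was below the level tested, with a mean of 1.12 in WT-WT and 1.10 in KO-KO.

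The de novo DNA methyltransferase genes fell while the Tet genes rose. Dnmt3a read 11.33, 11.47, 11.23 and 11.37 in WT-WT and 10.68, 10.37, 10.60, 10.35 and 10.49 in KO-KO, with no overlap. It fell by 0.85, the cofactor gene Dnmt3l by 0.55 and Dnmt3b by 0.42. Tet1, which oxidises methylated cytosine, rose by 0.59, Tet2 by 0.55 and Tet3 by 0.37. The maintenance methyltransferase gene Dnmt1 rose by 0.30. In all, 8 of 18 tested DNA methylation genes rose and 6 fell (77.8% called, median 0.08). Tet1, Tet2 and Dnmt3b were not called in a fit of clones E3 and C1 alone (0.0718, 0.133 and 0.0873).

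The genes that fell furthest as a group were those of trophectoderm and placenta, the extra-embryonic lineage that forms the outer layer of the blastocyst. Of 27 tested genes 22 fell and 3 rose (92.6% called, median -1.36). Hand1, a trophoblast transcription factor, read 6.54, 6.83, 6.58 and 6.61 in WT-WT and 4.23, 3.73, 3.74, 3.67 and 3.91 in KO-KO. It fell by 2.78 ± 0.132 (SE), with no overlap. Peg10, an imprinted gene of retroviral origin needed in the placenta, read 12.35, 12.66, 12.58 and 12.56 in WT-WT and 10.07, 9.75, 9.74, 9.66 and 9.81 in KO-KO. Gata3 changed by -1.56 and Ascl2, a factor of trophoblast progenitors, by -1.33. Bmp4 (0.46), Cdh3 (0.34) and Eomes (0.26) were the called increases. The Eomes call was lost without WT-WT replicate 1, 2 or 4 or KO-KO replicate 1, with adjusted p-values from 0.0514 to 0.0925.

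A shorter list of 17 trophectoderm markers was summed in each library. The sum is of linear values, so highly expressed members such as the epithelial keratins Krt8 and Krt18 weigh most. It is therefore not a measure of trophectoderm RNA alone. The sum ran from 12.47 to 12.83 in WT-WT and from 10.53 to 10.83 in KO-KO. Of its 14 tested members 12 fell and 1 rose, while the defining factors Cdx2, Elf5 and Tfap2a were below log2 of 10 in every library. Whether a change in the share of trophectoderm cells contributes to the decreases was not tested. The decrease was present against KO-WT as well, where 21 of the 27 trophectoderm and placenta genes were called lower, beside 22% of all tested genes. Against WT-KO 5 of the 27 were called lower and 2 higher, beside 4.12% and 4.26% of all tested genes.

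Keratin and junction genes changed in both directions. Of 36 tested genes 19 fell and 12 rose (86.1% called, median -0.18). The falls included Krt8, Krt18, Krt7, Krt19 (-2.44) and the annexin genes Anxa2, Anxa3 (-2.80) and Anxa1 (-2.58). The rises included Krt17 (1.09), the epithelial splicing regulator Esrp1 (0.70) and the tight junction genes Cldn7 (0.41) and Ocln (0.41). E-cadherin, encoded by Cdh1, rose by 0.18 ± 0.0379 (SE), with a limma adjusted p of 0.000972. Against WT-KO none of the 36 was called lower and 7 were called higher, where 4.26% of all tested genes were called higher and 4.12% lower.

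Genes of primitive and parietal endoderm, the other extra-embryonic lineage, also fell. Of 25 tested genes 19 fell and 2 rose (84% called, median -1.06). In WT-KO against WT-WT 22 of the 25 were called lower and 2 higher (median -1.09), where 3302 and 3049 of 14988 tested genes were. Against WT-KO 0 of the 25 were called lower in KO-KO and 2 higher, beside 4.12% and 4.26% of all tested genes. Dab2, an endocytic adaptor, read 7.20, 7.45, 7.26 and 6.76 in WT-WT and 4.86, 4.34, 4.49, 4.43 and 4.87 in KO-KO. Gata4 read 6.33, 6.45, 6.66 and 6.31 in WT-WT and 5.31, 5.21, 4.92, 4.63 and 5.14 in KO-KO. Neither gene had overlapping groups, with changes of -2.57 and -1.40. Gata6, the factor that starts this lineage, fell by 1.08 ± 0.141 (SE). Sox17, Foxa2 and Hnf4a were below log2 of 10 in every library. The summed level of 17 measured primitive endoderm markers ran from 13.94 to 14.10 in WT-WT and from 13.19 to 13.41 in KO-KO, and its part in the decreases was not tested.

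**Figure D4:**
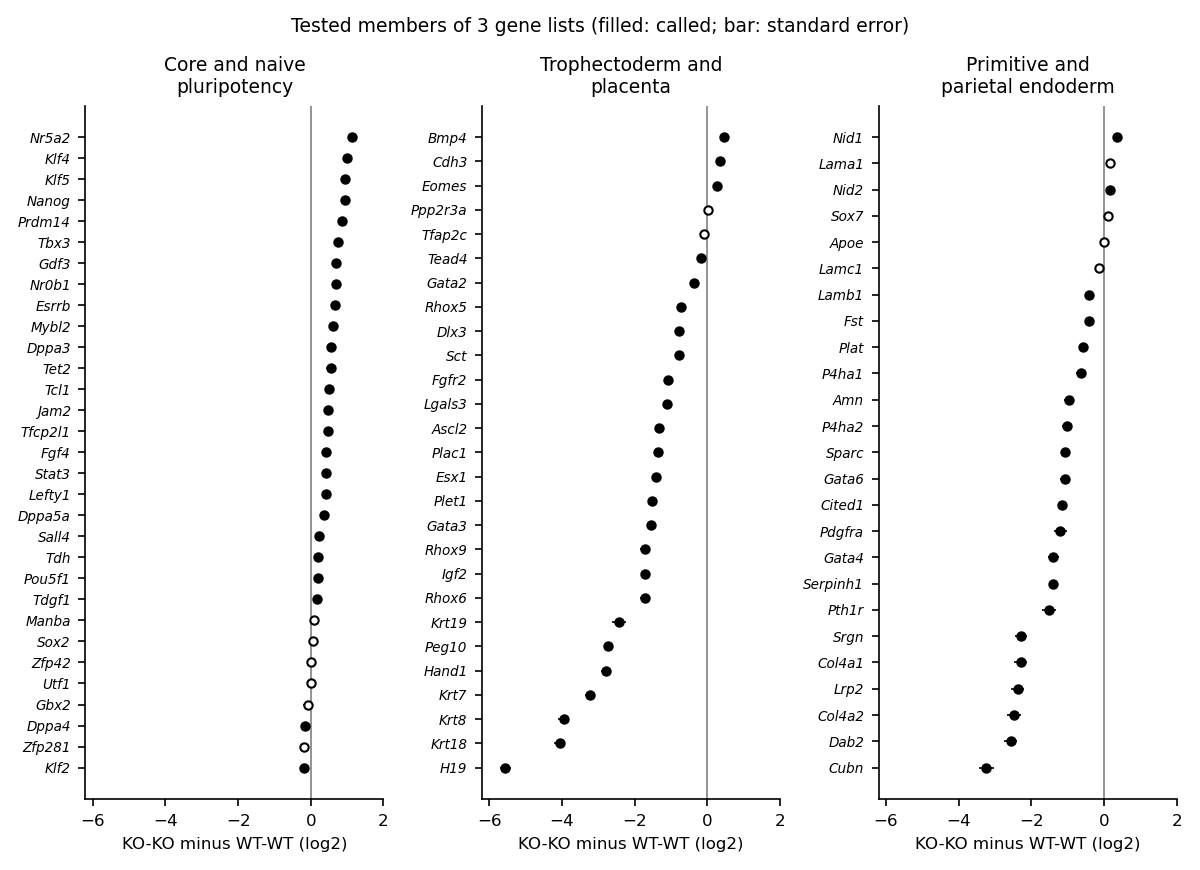
Difference between KO-KO and WT-WT in log2 units (x axis) for each tested member of 3 lists (rows); filled points were called and bars are standard errors. Most pluripotency members lie to the right of 0, led by Nr5a2 at 1.14, and most members of the trophectoderm and endoderm lists lie to the left, with H19 at -5.56 and Cubn at -3.23.

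The basement membrane, which parietal endoderm secretes, showed opposite changes among its components. Of 38 tested basement membrane and collagen genes 15 fell and 11 rose (68.4% called, median -0.08). The type IV collagen gene Col4a1 read 10.26, 10.73, 10.63 and 10.52 in WT-WT and 8.78, 8.07, 7.998, 8.07 and 8.29 in KO-KO, with no overlap. Col4a2, transcribed from the opposite strand beside it, fell by 2.47 and the collagen chaperone gene Serpinh1 changed by -1.41. The matrix protein gene Sparc fell by 1.06 and the laminin gene Lamb1 by 0.40, while Lama1 (0.17, adjusted p 0.149) and Lamc1 (-0.12, adjusted p 0.0849) were not called. Fibronectin, Fn1, rose by 0.48 and nidogen 1, Nid1, by 0.35. Of 8 tested fibroblast markers 4 fell and 1 rose; Col1a2 changed by -1.75 and Col1a1 by -0.85.

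Smooth muscle and SRF target genes, which serum response factor activates through the CArG box when actin polymerises, moved in 1 direction where they were called. Of 25 tested genes 18 fell, 0 rose and 7 were not called (72% called, median -0.76). In WT-KO against WT-WT 19 of the 25 were called lower and 1 higher, where 3302 and 3049 of 14988 tested genes were. Against WT-KO 1 of the 25 was called lower in KO-KO and 2 higher, beside 4.12% and 4.26% of all tested genes. Acta2, smooth muscle actin, read 6.30, 6.35, 6.30 and 6.87 in WT-WT and 3.60, 3.17, 3.32, 3.25 and 3.31 in KO-KO. Tagln, which encodes transgelin, read 7.88, 7.99, 7.90 and 8.25 in WT-WT and 5.48, 4.92, 5.06, 4.83 and 4.88 in KO-KO. The groups did not overlap for either gene, and the changes were -3.13 and -2.97. Ctgf and Cyr61, a pair of secreted matricellular factors, changed by -1.52 and -1.46, and the tropomyosin gene Tpm1 by -1.36. Srf itself differed by -0.09 (adjusted p 0.272) and the cytoplasmic actin gene Actg1 by -0.11 (adjusted p 0.108).

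The promoters of 2 members with called decreases and a CArG box are shown as the 250 bases before the RefSeq start site on GRCm38.p6, with the box in capitals. They are Acta1 at chr8:123894776-123895025 on the minus strand and Cnn2 at chr10:79988350-79988599 on the plus strand.
Acta1: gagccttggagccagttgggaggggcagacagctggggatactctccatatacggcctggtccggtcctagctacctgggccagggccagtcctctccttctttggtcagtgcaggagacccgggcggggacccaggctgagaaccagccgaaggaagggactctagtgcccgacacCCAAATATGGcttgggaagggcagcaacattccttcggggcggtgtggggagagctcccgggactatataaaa
Cnn2: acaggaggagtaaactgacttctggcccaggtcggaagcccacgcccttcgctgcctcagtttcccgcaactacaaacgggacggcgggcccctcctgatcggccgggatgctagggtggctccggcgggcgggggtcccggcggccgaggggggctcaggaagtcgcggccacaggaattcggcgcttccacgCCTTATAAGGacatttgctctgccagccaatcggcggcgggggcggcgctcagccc
The CArG box began at -73 in Acta1 and at -56 in Cnn2. It was found on either strand in 8 of 20 listed genes with a promoter sequence (40%). The share was 1.81% of 27025 genes and 1.52% of 10497 tested genes. The 8 were Acta1, Actg1, Cnn2, Myl9, Vcl, Fhl1, Fhl2 and Srf, among them Actg1 and Srf, which were not called. The list holds known SRF targets, so its high share follows from how it was made. Whether the box relates to the decreases was not tested. The TEAD-type motif GGAATG, searched on both strands, was found in 9 of the 20 (45%) and in 16.6% of all. Acta1 read 5.21, 5.45, 5.23 and 5.40 in WT-WT and 3.47, 3.06, 3.08, 3.01 and 2.98 in KO-KO, and Cnn2, which encodes calponin 2, fell by 0.76.

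Imprinted genes, expressed from 1 parental allele, fell in 19 of 41 tested cases and rose in 7 (63.4% called, median -0.09). H19 and its neighbour Igf2 both fell, the latter with a change of -1.72 ± 0.112 (SE). Sgce, the neighbour of Peg10, changed by -1.66. Of the maternally expressed RNAs of the Dlk1-Dio3 cluster, Rian changed by -1.25 and Meg3 by -0.997. Grb10, an adaptor that restrains insulin receptor signalling, read 8.01, 8.16, 8.06 and 8.25 in WT-WT and 9.37, 9.18, 9.03, 9.03 and 9.06 in KO-KO. It rose by 1.02 and the placental growth regulator Phlda2 by 0.79. Within the insulin and IGF list, 11 of 23 tested genes fell and 6 rose (73.9% called, median -0.13), among them the binding protein gene Igfbp4 (-1.58), the adaptor gene Irs2 (-0.87) and the kinase gene Mtor (0.44). The receptor gene Igf1r differed by 0.08 (adjusted p 0.334).

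In the Nodal and activin pathway, ligand and inhibitor genes each changed in both directions. Inhbb rose, as given above, and the ligand gene Nodal fell by 0.53 ± 0.07 (SE). Lefty2, a Nodal target and inhibitor, read 6.53, 6.49, 6.11 and 6.41 in WT-WT and 7.51, 7.29, 7.55, 7.60 and 7.41 in KO-KO. The inhibitory Smad gene Smad7 read 8.40, 8.43, 8.48 and 8.37 in WT-WT and 9.42, 9.47, 9.42, 9.42 and 9.36 in KO-KO. Both rose without overlap, by 1.09 and 1.00. Gdf3, a ligand of the same receptors, rose by 0.71. For Lefty2 and Gdf3 the KO-KO mean lay below that of WT-KO, by -0.43 and -0.30, and both of these differences were called. In all 8 of 20 tested members rose and 5 fell (65% called, median 0.07), the activin antagonist gene Fst (-0.42) among the latter.

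The BMP pathway and its Id targets gave 7 decreases and 5 increases among 15 tested genes (80% called, median -0.23). Id2, which encodes an inhibitor of basic helix-loop-helix factors, read 8.62, 8.71, 8.50 and 8.59 in WT-WT and 6.96, 6.76, 6.78, 7.10 and 6.88 in KO-KO. It fell by 1.71 and Id1 by 0.83, while Id4 rose by 0.58 and the ligand gene Bmp4 by 0.46. Id1 showed opposite single losses: its means were 7.22 in WT-WT, 8.01 in KO-WT, 6.14 in WT-KO and 6.39 in KO-KO. Both single differences were called.

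Wnt genes divided between 10 increases and 9 decreases among 29 tested (65.5% called). Notum, a secreted Wnt deacylase, rose by 1.19 and Sfrp1, a secreted Wnt-binding inhibitor, by 1.10. The receptor gene Fzd5 rose by 0.70. The ligand gene Wnt7b fell by 1.07, the receptor gene Fzd2 by 0.83 and the feedback gene Axin2 by 0.35.

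Immediate early genes other than Egr1 mostly fell or were not called. Of 20 tested, 9 fell and 3 rose (60% called). Klf6 changed by -1.32, the AP-1 gene Fosl2 by -1.12 and Ier5 by -0.97, while Zfp36l1 rose by 0.45. The ERK feedback list gave 6 decreases and 4 increases among 14, with Phlda1 at -0.86, Dusp5 at -0.51, Etv5 at 0.43 and Spry4 at 0.40. The call of Spry4 was lost, with 0.243, when only clones E3 and C1 were fitted.

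Neuronal genes rose and fell in equal number, 7 each among 21 tested (66.7% called, median -0.03). Stmn2 rose by 0.66 and Tubb3, which encodes neuronal beta tubulin, by 0.62. Neurod1, a proneural transcription factor, read 8.16, 8.04, 8.29 and 8.08 in WT-WT and 7.22, 7.18, 6.92, 7.12 and 7.44 in KO-KO. It fell by 0.97, Neurog1 by 0.79 and the Notch ligand gene Dll1 by 0.71. For Neurod1, Neurog1 and Dll1 the KO-KO level was also called lower than that of each single loss. Among 10 neural markers, of which 7 were tested, 5 rose and 1 fell, and Hes5 was below log2 of 10 in every library. Their summed level ran from 10.63 to 10.77 in WT-WT and from 11.20 to 11.32 in KO-KO, and its part in the changes of neuronal genes was not tested.

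Axon guidance genes numbered 18 increases and 14 decreases among 48 tested (66.7% called, median 0.09). Ntn1 led the increases and Ephb2, an ephrin receptor gene, followed at 1.01. The ephrin gene Efnb2 fell by 1.36 and the receptor gene Epha4 by 1.14. Sema3e, a semaphorin gene, read 7.88, 7.998, 8.08 and 7.86 in WT-WT and 7.20, 6.80, 6.81, 6.77 and 7.18 in KO-KO. It fell by 1.00, and its means in WT-KO and KO-WT were 7.73 and 7.20. Motile cilium genes rose in 8 of 24 tested cases and fell in 3 (45.8% called, near the level of all genes). Foxj1, the master factor of motile cilia, averaged 5.80 in WT-WT, 7.11 in KO-WT, 5.16 in WT-KO and 6.42 in KO-KO. The single losses of Foxj1 thus lay on either side of WT-WT, both called, with KO-KO between KO-WT and WT-WT.

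Known let-7 targets did not move in 1 direction. Of 59 tested, 24 fell, 12 rose and 23 were not called (61% called, median -0.07). The 59 include Trim71 (-0.93), which was deleted in the KO-KO cells, so its fall follows from the design. They also include Imp3 (-0.22), a different gene from Igf2bp3, with 0 seed matches. Hmga2, a chromatin protein gene of embryonic cells, read 7.39, 7.42, 7.52 and 7.23 in WT-WT and 6.23, 6.28, 6.28, 6.29 and 6.32 in KO-KO. Prtg, which encodes the early neural surface protein protogenin, read 7.62, 7.70, 7.76 and 7.86 in WT-WT and 6.50, 6.42, 6.23, 5.98 and 6.22 in KO-KO. Both fell without overlap, with changes of -1.11 ± 0.0741 and -1.47 ± 0.101 (SE). Their single losses differed: Hmga2 averaged 6.23 in WT-KO and 7.45 in KO-WT, whereas Prtg averaged 6.71 and 7.10. The nuclear receptor gene Nr6a1 fell by 0.57 and the chromatin regulator Arid3a by 0.50. Nr6a1 was also called lower in KO-KO than in WT-KO (-0.38) and KO-WT (-0.23).

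Other targets rose. Igf2bp2, which encodes an mRNA-binding protein, read 9.61, 9.60, 9.62 and 9.61 in WT-WT and 10.09, 10.08, 10.10, 10.15 and 10.26 in KO-KO, a change of 0.53. The cell cycle kinase gene Cdk6 rose by 0.71, Ccnd1 by 0.50 and Igf2bp3 by 0.41. The transcription factor gene Mycn differed by -0.07 (adjusted p 0.628) and Igf2bp1 by 0.12 (adjusted p 0.11). Several genes counted as let-7 targets also belong to other lists, such as Peg10 and Thbs1 (-2.22).

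The seed match gave a view that does not depend on a list. It was sought in the 3' UTR of 12544 tested genes and was present in 1188 of them (9.47%), and in 39 of the 59 listed targets (66.1%). Among the 39, 12 fell and 8 rose, and among the 20 without a match, 12 fell and 4 rose. The deleted gene Trim71, with 4 matches, is 1 of the 39 and is also counted below among genes with 3 or more. Imp3 is 1 of the 20. Over all genes, the median difference was -0.0245 for 11356 genes with no match, 8.75e-05 for 1040 genes with 1 match, 0.0159 for 123 genes with 2 and -0.0549 for 25 genes with 3 or more. Genes with at least 1 match were called lower in 22.6% of cases, against 26% of genes without. Their 3' UTRs were longer, with a median of 2167.5 bases against 863. After removal of trends with GC content and length of the longest transcript, the medians were -0.0046 with a match and -0.00751 without. The length of the 3' UTR itself was not adjusted for.

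**Figure D5:**
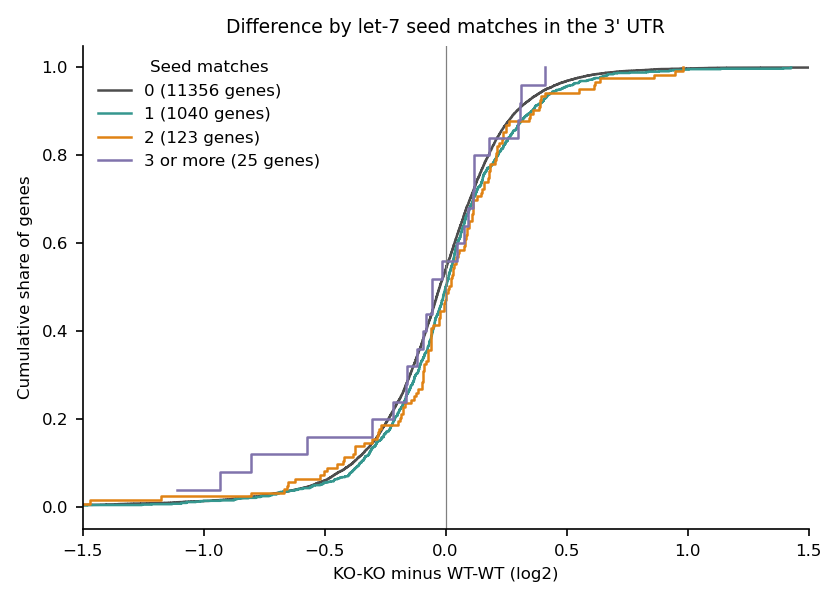
Cumulative share of genes (y axis) by difference between KO-KO and WT-WT in log2 units (x axis, shown from -1.5 to 1.5), with 1 line per number of let-7 seed matches in the 3' UTR. The lines for 0, 1 and 2 matches lie close together, with medians of -0.0245, 8.75e-05 and 0.0159, and the line for 3 or more rests on 25 genes.

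Among mRNAs described as bound and repressed by TRIM71, 5 of 9 tested rose and 0 fell (55.6% called, median 0.29). They were Inhbb, Egr1, Plxnb2 (0.49), Ago2 (0.31) and E2f7 (0.29). Plxnb2, a semaphorin receptor gene, read 10.01, 10.10, 10.12 and 10.04 in WT-WT and 10.64, 10.69, 10.38, 10.62 and 10.47 in KO-KO. It averaged 9.85 in WT-KO and 10.76 in KO-WT, so its KO-KO level lay between those of the single losses. Egr1, by contrast, averaged 8.87 in WT-KO and 7.63 in KO-WT beside 8.97 in KO-KO. Cdkn1a, which encodes the cell cycle inhibitor p21, differed by -0.14 (adjusted p 0.185) from WT-WT, by 0.38 from WT-KO and by -0.54 from KO-WT, and the last pair of differences was called. Rbl1 (0.17), Rbl2 (0.10) and Mbnl1 (-0.04) were not called against WT-WT.

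The called changes in the list of microRNA processing, uridylation and silencing genes ran from -0.47 to 0.40. Of 26 tested, 8 rose and 4 fell (46.2% called, near the level of all genes, median 0.07). The silencing scaffold genes Tnrc6b and Tnrc6c rose by 0.40 and 0.30, the RNA editing gene Adar by 0.36 and Dis3l2, the exonuclease that degrades uridylated pre-let-7, by 0.32. Drosha, the nuclear processing enzyme, rose by 0.21 and Dicer1, the cytoplasmic one, fell by 0.23. The lower end of the range, -0.47, was Smg1, a kinase of nonsense-mediated decay rather than of the microRNA pathway.

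Serine, threonine and one-carbon enzymes and their regulators rose in 16 of 26 tested cases and fell in 2 (69.2% called, median 0.20). Slc1a5, a glutamine transporter gene, read 10.13, 10.14, 10.10 and 10.14 in WT-WT and 10.68, 10.73, 10.64, 10.75 and 10.70 in KO-KO. The mitochondrial enzyme gene Shmt2 rose by 0.51, Mthfd2 by 0.44 and Atf4, the stress-response factor that drives this set, by 0.44. Chac1, a target of Atf4, rose by 1.10 and Trib3 by 0.64. Tdh, the threonine dehydrogenase that mouse stem cells depend on, rose by 0.21. Against WT-KO 0 of the 26 members were called higher and 4 lower, where 4.26% of all tested genes were called higher and 4.12% lower.

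Glycolysis genes rose in 8 of 25 cases and fell in 4 (48% called), with Pfkfb3 at -1.28 and the glucose transporter gene Slc2a1 at -0.58. Of 76 oxidative phosphorylation genes 19 rose and 9 fell (36.8% called). Cholesterol synthesis genes rose in 7 of 24 cases and fell in 1 (33.3% called), both below the level of all genes. Cytosolic ribosomal protein genes rose in 8 and fell in 9 of 82 cases, and mitochondrial ones in 7 and 7 of 77.

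Cell cycle genes fell in 19 of 50 tested cases and rose in 10 (58% called, median -0.06). The kinase inhibitor genes Cdkn2a and Cdkn2b fell by 0.82 and 0.77, and the proliferation marker gene Mki67 by 0.72. Among 31 tested p53 targets 13 fell and 8 rose (67.7% called, median -0.14). Perp, an apoptosis effector gene, read 8.12, 8.23, 8.31 and 8.18 in WT-WT and 7.64, 7.55, 7.47, 7.55 and 7.43 in KO-KO, and Mdm2 fell by 0.64. Sesn2 rose by 0.46 and Tigar by 0.41. Against WT-KO 11 of the 31 were called higher in KO-KO and 0 lower (35.5%, where 4.26% of all tested genes were called higher). Perp exceeded its WT-KO level by 0.52 and Mdm2 by 0.25.

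Polycomb genes fell in 14 of 33 cases and rose in 5 (57.6% called, median -0.11), with Pcgf5 at -0.88 and Phc2 at -0.76. Germline and piRNA pathway genes fell in 12 of 34 cases and rose in 5 (50% called, median -0.12). Tdrd12, a piRNA pathway gene, read 8.83, 8.91, 8.30 and 8.85 in WT-WT and 7.68, 7.51, 7.72, 7.99 and 7.91 in KO-KO, near its KO-WT mean of 7.84. The RNA helicase gene Mov10 rose by 1.04 ± 0.0513 (SE), with a limma adjusted p of 2.93e-10. Germ layer and mesoderm genes fell in 9 of 15 tested cases and rose in 3.

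The comparison could be made within each pair of clone sets, since clones 1 and 1-4 shared days and clones E3 and C1 shared others. Clones 1 and 1-4 alone gave 4720 called genes and clones E3 and C1 alone 2668. A test of the difference between the clone sets called 0 genes in limma, with 124 of 14988 genes at an unadjusted p under 0.05 (0.827%). Without WT-WT replicate 1 or KO-KO replicate 1 it called 1 gene. A threshold of 0.05 passes a larger share when no gene differs, so this test was conservative. Its lack of calls does not show that the clone sets agree. H19 changed by -5.78 in clones 1 and 1-4 and by -5.37 in clones E3 and C1, Krt18 by -3.81 and -4.26, and Inhbb by 1.74 and 1.60. Nanog changed by 0.81 and 1.04, and Hmga2 by -1.03 and -1.20. Clones E3 and C1 alone did not give a call for 21 of the 157 called genes named above. They were Ago2, Cdh1, Cldn7, Dicer1, Dis3l2, Dnmt3b, Dppa4, Drosha, E2f7, Eomes, Fst, Igf2bp3, Klf2, Nid1, Pou5f1, Spry4, Tdh, Tet1, Tet2, Tnrc6b and Tnrc6c, with adjusted p-values from 0.0567 for Tnrc6c to 0.499 for Eomes. Clones 1 and 1-4 alone did not give one for Axin2 (0.0705), Fst (0.0557) and Klf2 (0.183).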

How the data were processed

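The authors deposited 1 table of log2 normalised expression for 21685 genes in 19 libraries, with values from -0.71 to 16.30. The scale was read from the values as log2, and the deposited values are treated as another unit than counts. The submitters' processing notes name CASAVA 1.8, STAR and DESeq2 without their roles, and the genome build, the annotation and the counting step are not given in the sources used here. Read depth is therefore unknown and limits the precision of low values to an extent that could not be computed. A day effect had already been removed from the deposited values: the largest day term was 1.7e-08 log2 units, against 1.2 after the day labels were shuffled. KO-WT replicate 5, the only library of day 6, differed from its group's average over replicates 1 to 4 by at most 1.5e-08 and was left out, so 18 libraries were fitted.

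Genes with at least log2 of 10 in 4 or more libraries were tested, 14988 in all (69.1%). limma 3.58.1 in R 4.3.3 was fitted with a mean for each genotype and a term for each day, leaving 10 residual degrees of freedom, followed by empirical Bayes moderation with a trend and Benjamini-Hochberg adjustment over all tested genes. The day term pairs KO-KO and WT-WT libraries made on the same day, as the labels give it, in 4 pairs. KO-KO replicate 2, of day 2, has no WT-WT library of its day. The term also takes up the degrees of freedom that the earlier removal of the day effect used. The labels do not say that the libraries came from separate cultures, so p-values measure the spread between these libraries, which may be technical. The clone sets were compared in a fit with 7 residual degrees of freedom.

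The genes of the lists and the lists themselves were chosen with earlier results of these data known. Genes named singly are the 8 widest changes in each direction with no overlap, a mean of at least log2 of 50 and a call, up to 4 in each direction that stood apart from all 3 other genotypes, and members of the lists; a few genes that the rule names are not reported here. Alternatives were other filters, scalings, covariates, moderation and sets of libraries. Let-7 and promoter sequences came from RefSeq tables, and 3' UTRs from GENCODE M21 on GRCm38.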

Additional observations from a re-analysis of the deposited data

Results flagged for a closer look

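A library was singled out where its gap to the nearest library of its group exceeded Dixon's limit for the group's range. This was so in 21 of 342 combinations of a gene and a group, where chance gives about 1 in 20. KO-KO replicate 1 stood above its group for Krt18 (7.24, next 6.69), AC122273.1 (5.44, next 4.99), Acta1 (3.47, next 3.08), Anxa3 (5.46, next 4.94) and Trib3 (8.75, next 8.62). KO-KO replicate 5 stood below its group for H19 (5.22, next 5.68) and Mthfd2 (10.23, next 10.32), and above it for Sox2 (11.66, next 11.53). KO-KO replicate 2 was low for Pou3f1 (5.52, next 5.81) and KO-KO replicate 3 for Igf2bp3 (8.15, next 8.27).

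Among the WT-WT libraries, replicate 1 was low for Col4a2 (9.38, next 9.74), Irs2 (7.03, next 7.19), Mras (5.83, next 5.94) and Thbs1 (7.27, next 7.65). Replicate 2 was high for Chac1 (6.16, next 5.75). Replicate 3 was low for Ascl2 (5.92, next 6.26), Fgf17 (5.65, next 6.02) and Tdrd12 (8.30, next 8.83) and high for Tbx3 (9.41, next 9.13). Replicate 4 was high for Acta2 (6.87, next 6.35) and low for Id1 (6.94, next 7.27).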

How the results depend on the processing

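No named gene that was called changed direction in any alternative run. Of 157 called genes named in the report, 135 kept their call in every alternative that gave a value. Beyond the losses in the report, Klf2 lost its call under both other filters on low values (adjusted p 0.0543 and 0.0503) and without the variance trend (0.066). Calls were also lost by Dppa4 (0.0698) and Klf2 (0.121) with the 2 genotypes alone, by Dppa4 (0.13), Eomes (0.169), Klf2 (0.407) and Tet2 (0.0694) on days 3, 4 and 5 alone, and Eomes (0.0688) with GC and length trends removed. Removal of these trends called Lin28b (0.0176), Lamc1 (0.00114) and Rbl1 (0.00543), which are not called in the report, and other alternatives called Rbl1, Lamc1, Igf2bp1, Lama1, Actg1 or Cdkn1a.

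Without the day term as a block, 8292 genes in place of 6834 were called against WT-WT, KO-KO against KO-WT 8001 in place of 6412, and KO-KO against WT-KO 2618 in place of 1256. The same-day pairing comes from the labels.

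Subsets of the libraries changed the counts. The KO-KO and WT-WT comparison gave 2668 in clones E3 and C1 alone, and 5750 to 7013 with 1 library left out. KO-KO against WT-KO gave 287 in clones 1 and 1-4 alone, 153 in clones E3 and C1 alone, 217 on days 3, 4 and 5 alone, 794 with the 2 genotypes alone and 676 to 1392 with 1 library left out. KO-KO against KO-WT gave 2293 in clones 1 and 1-4 alone, 3595 in clones E3 and C1 alone and 5382 to 6590 with 1 library left out. The difference between clone sets gave 2 called genes with no filter on low values and 0 to 1 with 1 library left out.

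The medians of 7 lists changed sign in at least 1 alternative: ERK feedback, Wnt, both ribosomal protein lists, immediate early, insulin and IGF, and neuronal genes. The sign of these medians is not read as a result. In all, 24 of 1049 list medians moved by more than their spread between same-day pairs.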
